A study of Mus musculus with 24 samples.

Results

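The genes of the T cell receptor complex, its coreceptors CD4 and CD8 and the costimulatory receptor CD28 were followed in CD45+ cells from EMT6-hHER2 tumors. Members were the rows of the expression data that carry the symbols Cd3d, Cd3e, Cd3g, Cd247, Trbc1, Trbc2, Cd4, Cd8a, Cd8b1 and Cd28, which made 10 of 16996 genes, all with a value in each of 24 samples. Trbc1 and Trbc2 carry no symbol in the data and were matched by their Ensembl identifiers. EMT6-hHER2 is a murine breast cancer line, here a single clone, that expresses human HER2, and it was grown in the mammary gland of wild-type female Balb/c mice aged 8 to 10 weeks at injection (10 to 12 weeks in the sample labels). At a tumor volume of 80 mm3 the mice were left untreated or received a single intravenous dose of trastuzumab (20 mg/kg), an antibody against HER2, of T-DM1 (15 mg/kg), which is trastuzumab linked to the maytansinoid DM1, or of T-PNU (1 mg/kg), which is trastuzumab linked to an anthracycline derived from PNU-159682. Tumors were taken 10 days later, CD45+ cells were enriched with magnetic beads, and each of the 24 mice, 6 per group, gave 1 RNA-seq library.

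On the surface of most T cells an alpha and a beta chain form the receptor that recognizes peptide on MHC molecules. These chains have no signaling tails of their own, and the signal is passed on by the CD3 gamma, delta and epsilon chains (Cd3g, Cd3d, Cd3e) and by the zeta chain (Cd247), which the kinase Lck phosphorylates and to which the kinase Zap70 then binds. CD4 on helper and regulatory T cells binds MHC class II and CD8, a dimer of the products of Cd8a and Cd8b1, binds MHC class I, and both bring Lck to the receptor. Cd8a is also expressed by some dendritic cells and Cd4 by some myeloid cells, whereas Cd8b1 is largely restricted to T cells. CD28 binds CD80 and CD86 on antigen-presenting cells and gives the second signal for activation.

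In the mouse genome (GRCm38) the CD3 genes lie side by side on chromosome 9, with Cd3g at chr9:44969572-44980431 on the minus strand, Cd3d at chr9:44981786-44987339 on the plus strand and Cd3e at chr9:44998740-45009627 on the minus strand. The annotated starts of Cd3g and Cd3d face away from each other and are 1355 bp apart. Cd247 (chr1:165788681-165877277) and Cd28 (chr1:60716800-60773359) lie on chromosome 1, both on the plus strand. Chromosome 6 holds the others, with Cd8b1 (chr6:71322788-71337494) next to Cd8a (chr6:71373427-71379173), the beta chain constant genes Trbc1 (chr6:41538218-41539881) and Trbc2 (chr6:41546730-41548352), all on the plus strand, and Cd4 (chr6:124864692-124888221) on the minus strand.

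RefSeq (GRCm38.p6) gave the promoter of 5 of the 10 members, Cd3d, Cd3e, Cd3g, Cd247 and Cd8a. The 250 bases before the start are shown for Cd3d and Cd247, whose levels followed each other most closely over the samples, for Cd3e, against which the other members are set below, and for Cd8a, which followed Cd3e least. Capitals mark matches, on either strand, to 5 short sequences bound by factor families active in T cells. TGTGGT was searched for RUNX factors. For ETS factors the letters AGGAAG were searched. GATA factors were represented by AGATAA. The E-box was taken as CAGCTG. Factors of the TCF and LEF family were given the letters CTTTGA.
Cd3d, chr9:44981536-44981785, plus strand: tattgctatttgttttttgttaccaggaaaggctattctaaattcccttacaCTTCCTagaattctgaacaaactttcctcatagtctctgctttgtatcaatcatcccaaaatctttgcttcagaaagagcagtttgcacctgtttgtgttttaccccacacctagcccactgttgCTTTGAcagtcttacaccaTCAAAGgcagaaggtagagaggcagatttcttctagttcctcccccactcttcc
Cd247, chr1:165788431-165788680, plus strand: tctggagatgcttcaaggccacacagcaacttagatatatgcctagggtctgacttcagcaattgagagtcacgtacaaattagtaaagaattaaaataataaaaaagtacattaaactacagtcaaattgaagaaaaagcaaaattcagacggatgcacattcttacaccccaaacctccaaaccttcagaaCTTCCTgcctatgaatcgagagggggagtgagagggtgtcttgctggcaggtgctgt
Cd3e, chr9:45009612-45009861, minus strand: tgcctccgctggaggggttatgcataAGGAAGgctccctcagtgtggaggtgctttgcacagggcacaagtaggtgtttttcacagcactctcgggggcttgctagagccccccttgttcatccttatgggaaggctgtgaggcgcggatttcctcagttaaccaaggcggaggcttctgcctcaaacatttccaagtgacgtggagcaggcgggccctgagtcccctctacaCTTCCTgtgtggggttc
Cd8a, chr6:71373177-71373426, plus strand: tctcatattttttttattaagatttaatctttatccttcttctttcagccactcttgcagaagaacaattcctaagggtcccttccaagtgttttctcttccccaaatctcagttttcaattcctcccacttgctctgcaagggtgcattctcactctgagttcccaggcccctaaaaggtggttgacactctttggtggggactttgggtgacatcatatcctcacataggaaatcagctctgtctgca
The ETS letters were found in Cd3d (198 bases before the start), in Cd247 (57 bases) and at both ends of the Cd3e window (224 and 17 bases). Starts are here those of RefSeq. For Cd3e the window reaches to 45009612, inside the gene as placed above (up to 45009627), so that the match at 17 bases overlaps that gene. TCF/LEF letters stood in Cd3d only among the 5, at 73 and 54 bases, once on each strand, and GATA letters in Cd3g only, at 104 bases. Cd8a held none of the 5 sequences in this window, and no match overlapped another. Of 32536 mouse promoters of the same length, 29.6% held the ETS letters, 13.9% those of TCF/LEF, 9.97% those of GATA, 14.0% those of RUNX and 13.1% the E-box, shares against which the matches of these members are to be read.

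The values were normalized for library size by the authors and are on a log2 scale, and the read depth behind them is unknown. Their transformation is not named, and if it shrinks low or noisy values, the differences given here may be smaller than those of the counts. Linear shares may then be smaller or, for scarce transcripts, larger. The median of a sample ran from 8.73 to 8.87. The pan-leukocyte gene Ptprc, which encodes CD45, lay between 14.01 in T-DM1 F3 and 15.52 in T-PNU C2, and the T cell gene Trac, the alpha chain constant gene, between 8.28 in untreated A1 and 12.25 in T-PNU C2, so that T cell transcripts were found in every sample. Samples are named by group and by the well code of their label. The published heatmaps leave out a pair of untreated samples, B1 and C1, and a pair of trastuzumab samples, B3 and E2. The methods say that samples were compared with each other to remove outliers, and give no reason for these in particular. Results are therefore given for all 24 samples and for the 20 shown there, and calls in the 20 are not independent of expression values. For 8 of 10 members B1 and C1 were the 2 highest untreated samples (for Trbc1 and Cd4 C1 was not), and for 9 of 10 members E2 and B3 were the 2 highest trastuzumab samples (for Cd8a B3 was not).

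Per kilobase of exon, the order of the mean levels over the 24 samples was Trbc2 (10.59), Trbc1 (9.94), Cd3d (8.61), Cd8b1 (8.44), Cd3g (8.34), Cd4 (8.16), Cd8a (7.78), Cd247 (7.22), Cd28 (7.22) and Cd3e (6.94). The length merges the exons of all annotated transcripts of a gene, so that this order may depend on the annotation. Trbc2 exceeded Trbc1 by 0.65 ± 0.26 (SD of the difference within a sample, n = 24), and Trbc1 exceeded Cd3d by 1.33 ± 0.23, both in 24 of 24 samples. Every later pair of neighbours differed by less than the SD of its difference, from 4.88e-06 ± 0.30 for Cd247 and Cd28 to 0.56 ± 0.71 for Cd8a and Cd247. The constant regions of Trbc1 and Trbc2 are nearly identical, and how the counting divided the reads they share is uncertain, so that their sum is the safer value. On a log2 scale, not per kilobase, this sum was 10.5 ± 1.24 (SD, n = 6) in untreated, 10.7 ± 1.13 in trastuzumab, 10.5 ± 0.91 in T-DM1 and 11.6 ± 0.99 in T-PNU samples.

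Within every group the members spread over a wide range. The mean of the 10 members, on the log2 scale, ran from 8.08 (A1) over a median of 9.19 to 11.2 (B1) in untreated tumors, from 8.25 (G2) over 9.42 to 10.9 (E2) after trastuzumab, from 8.19 (H3) over 9.35 to 10.4 (E3) after T-DM1 and from 9.26 (G1) over 10.6 to 11.6 (C2) after T-PNU. The 4 groups overlapped, and G1 and A2 (9.26 and 9.38) were the lowest T-PNU samples. Over the 24 samples single members spanned from 2.36 (Cd8a) to 4.10 (Cd247) on the log2 scale, and their SD was larger than that of 97.4% to 99.5% of all genes. The division into the 4 groups accounted for 14.0% (Cd4) to 25.5% (Cd8a) of a member's variance, so that most of it lay between mice of the same group.

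**Figure D1:**
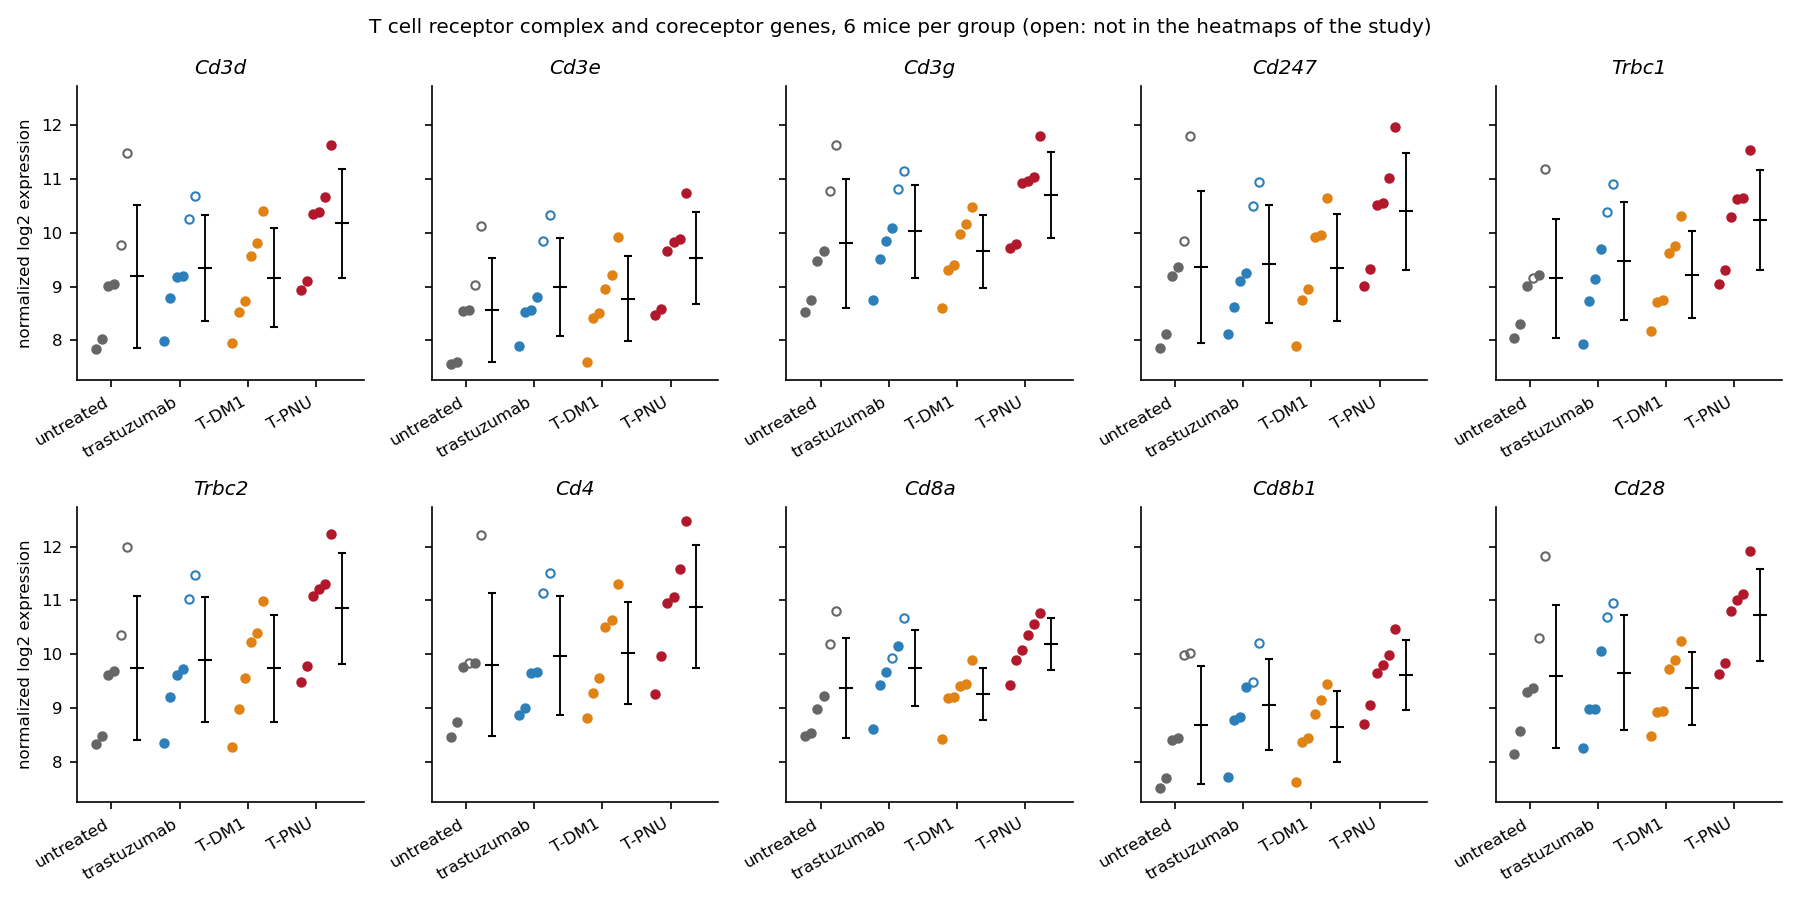
Normalized log2 expression of each of the 10 members (vertical axis) in the 4 groups (horizontal axis). Each point is 1 mouse, open points are the 4 samples absent from the heatmaps of the study, and the bar beside them is the mean ± SD of 6 mice. The open points are among the highest of their groups, and the T-PNU points overlap those of the other groups in every panel.

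Among the CD3 chains, Cd3e had a lowest, median and highest log2 value of 7.56, 8.56 and 10.1 in untreated samples, 7.89, 8.69 and 10.3 after trastuzumab, 7.60, 8.74 and 9.93 after T-DM1 and 8.47, 9.75 and 10.7 after T-PNU. Values for the zeta chain Cd247, the member of the widest range, were 7.86, 9.28 and 11.8 in untreated samples, 8.13, 9.17 and 10.9 after trastuzumab, 7.90, 9.43 and 10.6 after T-DM1 and 9.01, 10.5 and 12.0 after T-PNU. For both genes A1 was the lowest and C2 the highest of the 24 samples, and the groups overlapped. Group means of Cd3d and Cd3g ranged from 9.17 and 9.65 in T-DM1 samples to 10.2 and 10.7 in T-PNU samples.

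For the coreceptors, Cd4 had a lowest, median and highest value of 8.46, 9.80 and 12.2 in untreated samples, 8.87, 9.66 and 11.5 after trastuzumab, 8.83, 10.03 and 11.3 after T-DM1 and 9.26, 11.0 and 12.5 after T-PNU. Cd8a lay at 8.49, 9.11 and 10.8 in untreated samples, 8.62, 9.80 and 10.7 after trastuzumab, 8.43, 9.31 and 9.89 after T-DM1 and 9.43, 10.2 and 10.8 after T-PNU. The highest Cd4 value was that of T-PNU C2 followed by untreated B1, whereas the highest Cd8a value was that of untreated C1. Cd8b1 followed Cd8a at a lower log2 value, with group means of 8.68 ± 1.09 (SD, n = 6) in untreated, 9.07 ± 0.84 in trastuzumab, 8.66 ± 0.65 in T-DM1 and 9.62 ± 0.64 in T-PNU samples. Cd28 lay at 8.14, 9.34 and 11.8 in untreated samples, 8.26, 9.53 and 10.9 after trastuzumab, 8.49, 9.33 and 10.2 after T-DM1 and 9.64, 10.9 and 11.9 after T-PNU.

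The comparison of T-PNU with untreated tumors asks whether the conjugate changed the T cell content of the CD45+ fraction. Over the 24 samples the mean of every member was higher after T-PNU, by 0.81 ± 0.36 (SE) for Cd8a to 1.14 ± 0.54 for Cd28 on the log2 scale, and none passed an adjusted p of 0.05 in limma, where 0.188% of all genes did. The median difference of the members was 1.01, against 0.01 over all genes. The lowest adjusted p was 0.174, for Cd8a, and 3 members (Cd8a, Cd8b1 and Cd28) had an unadjusted p under 0.05. Of all genes 24.8% did. Without untreated C1 alone, Cd8a passed (adjusted p = 0.0301), beside 17.2% of all genes. Cd3e differed by 0.96 ± 0.48 (adjusted p = 0.212), Cd4 by 1.08 ± 0.61 (adjusted p = 0.266) and Trbc2 by 1.11 ± 0.61 (adjusted p = 0.254), all in limma. In these bulk samples, a larger share of T cells and more of each transcript per T cell cannot be told apart. Transcripts of tumor, epithelial and stromal cells also varied between samples (below), and their part was not tested.

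In the 20 samples all 10 members passed in the comparison of T-PNU with untreated tumors, where 31.1% of all genes did, with a median difference of 1.64. The values ran from 1.37 ± 0.29 for Cd8a (limma, adjusted p = 0.00483) to 1.87 ± 0.43 for Cd28 (adjusted p = 0.00651), and Cd4 had the highest adjusted p, 0.0236, at 1.68 ± 0.53. Leaving out B1 and C1 removes the 2 highest untreated samples of 8 members and thereby lowers the untreated mean. With all 24 samples and a weight for each sample estimated from its fit over all genes, all 10 members also passed, beside 34.3% of all genes. The weights were 0.22 for B1 and 0.29 for C1, and T-PNU C2, which was the highest sample of 9 members, also had a low weight (0.29). Since the members moved together over the samples (below), 10 calls are not 10 independent results.

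**Figure D2:**
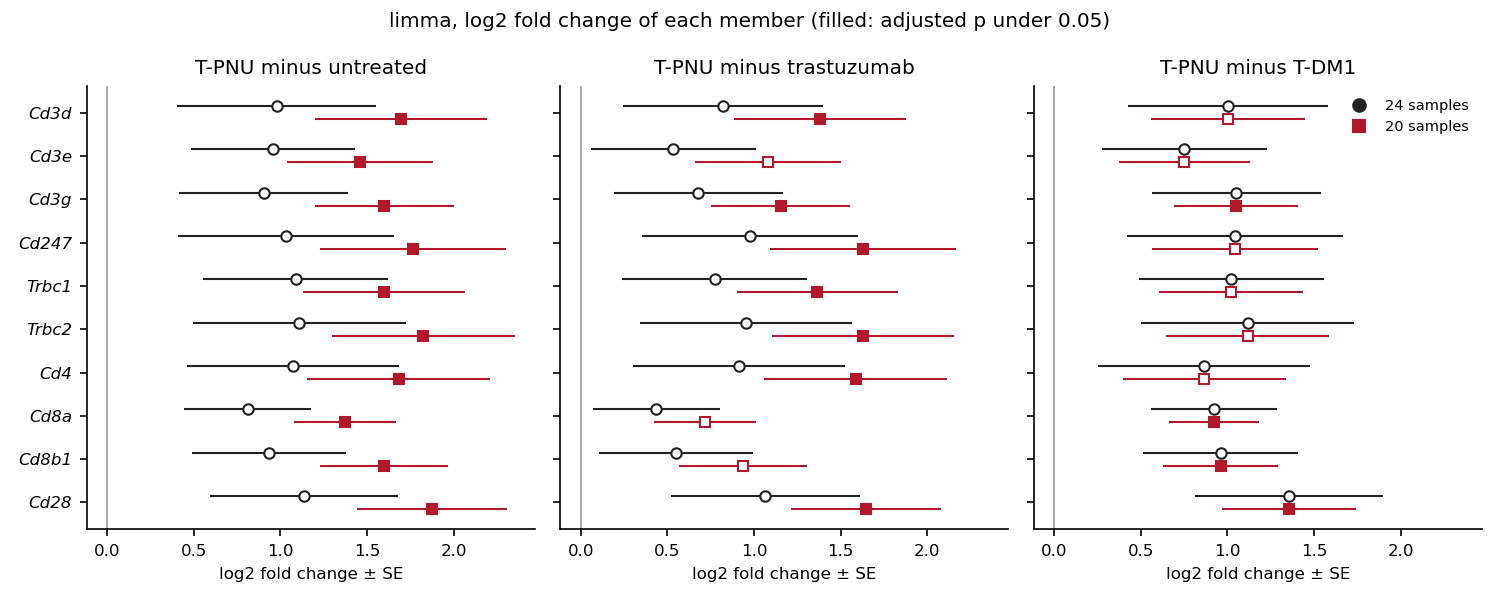
log2 fold change ± SE (horizontal axis, limma) of each of the 10 members (vertical axis) for T-PNU against the other 3 groups, over all 24 samples (circles) and the 20 samples of the heatmaps (squares). Filled marks have an adjusted p under 0.05, and no circle is filled, against 10, 7 and 4 squares from left to right.

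Against trastuzumab alone, the antibody of T-PNU without its payload, the members differed by 0.44 ± 0.36 (Cd8a) to 1.07 ± 0.54 (Cd28) on the log2 scale over 24 samples, all higher after T-PNU. None passed in limma, where 0.00588% of all genes did, and none had an unadjusted p under 0.05. In the 20 samples 7 members passed, beside 28.0% of all genes. Cd28 was the farthest apart at 1.65 ± 0.43 (limma, adjusted p = 0.0151), and those that missed the threshold were Cd3e (adjusted p = 0.0604), Cd8b1 (adjusted p = 0.0627) and Cd8a (adjusted p = 0.0696). With sample weights 1 member passed, beside 13.3% of all genes.

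T-DM1 is built on the same antibody as T-PNU with another payload, at another dose (15 against 1 mg/kg), and all 12 of these samples are among the 20. Over the 24 samples the members were higher after T-PNU by 0.75 ± 0.48 (Cd3e) to 1.35 ± 0.54 (Cd28), and none passed in limma, where 29.8% of all genes did. Cd8a differed by 0.92 ± 0.36 (limma, adjusted p = 0.0585) and Cd28 had an adjusted p of 0.0624, and 4 members had an unadjusted p under 0.05, as did 42.9% of all genes. Cd8a also passed when any of B1, C1, E2, G2, E3 or A2 was left out alone, and Cd28 when B1, G1 or A2 was, in fits that called 25.6% to 34.6% of all genes. In the fit of the 20 samples, which left these 12 samples and the differences as they were and changed only the estimate of spread and the genes called, 4 members passed beside 39.9% of all genes. They were Cd8a (adjusted p = 0.0097), Cd28 (adjusted p = 0.00993), Cd3g (adjusted p = 0.0257) and Cd8b1 (adjusted p = 0.0272). With sample weights 7 members passed beside 44.6% of all genes. The share of 4 in 10 members is thus that of all genes. The summed level of tumor, epithelial and stromal genes was higher in every T-DM1 than in every T-PNU sample (below), a sum carried by Col1a2. Krt14 and Pecam1 of the same list were instead higher in every T-PNU sample. The part of these cells was not tested.

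In the remaining comparisons no member passed in limma with either set of samples, and none had an unadjusted p under 0.05. T-DM1 differed from untreated by a median of -0.02 over the members in the 24 samples, where 6.27% of all genes passed, and by 0.66 in the 20, where 2.01% did. For trastuzumab against untreated the medians were 0.19 (0.259% of all genes passed) and 0.27 (0.0% passed, with 865 genes at an unadjusted p under 0.05). For T-DM1 against trastuzumab they were -0.23 (0.647% of all genes) and 0.34 (0.812%). The sign of the median changed with the choice of samples in both comparisons that hold T-DM1.

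The balance between CD8 and CD4 was taken as Cd8a minus Cd4 in each sample, a difference of log2 values that is not corrected for gene length. It ran from -2.02 (B1) over a median of -0.37 to 0.96 (C1) in untreated samples, from -1.21 (B3) over -0.24 to 0.66 (F2) after trastuzumab, from -1.42 (E3) over -0.73 to -0.07 (D3) after T-DM1 and from -1.71 (C2) over -0.62 to 0.62 (G1) after T-PNU. Both ends of the range were thus untreated tumors, both of them absent from the heatmaps, and all groups overlapped. Group means were -0.44 ± 0.99 (SD, n = 6), -0.23 ± 0.73, -0.76 ± 0.55 and -0.70 ± 0.84 in the same order.

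No pair of groups differed in this balance by a two-sided exact permutation test, whose smallest possible p was 0.00216 over 924 splits. T-PNU minus untreated was -0.26 ± 0.53 (SE, exact permutation p = 0.615), T-PNU minus trastuzumab -0.47 ± 0.46 (exact permutation p = 0.299) and T-PNU minus T-DM1 0.05 ± 0.41 (exact permutation p = 0.894). Leaving out 1 sample turned the sign of the first (0.0155 without untreated C1) and of the last (-0.21 to 0.26), and that of trastuzumab minus untreated (0.21 ± 0.50, and -0.11 without untreated B1). The largest difference was that of T-DM1 minus trastuzumab, -0.53 ± 0.37 (exact permutation p = 0.177). Adjusted over the 6 pairs of groups, the exact permutation p-values lay between 0.826 and 0.894. E2 (-0.84) and B3 (-1.21) had the lowest balance of the trastuzumab samples, against -0.25 to 0.66 in the rest. The 20 samples, which lack them, thus have a higher trastuzumab mean, and no pair passed there either. Cd8b1 minus Cd4 gave group means of -1.13 in untreated, -0.91 in trastuzumab, -1.36 in T-DM1 and -1.27 in T-PNU samples, in the same order of groups as Cd8a minus Cd4.

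**Figure D3:**
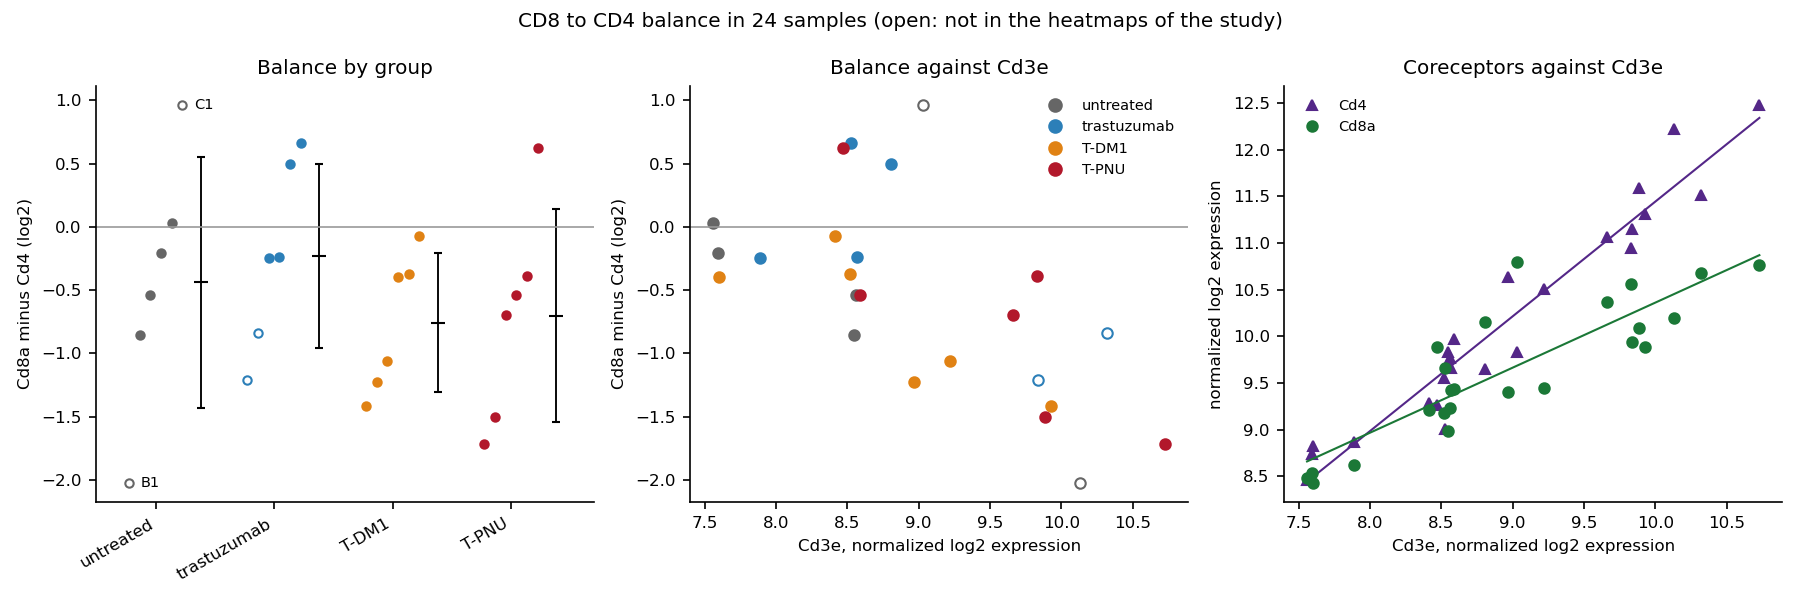
Left, Cd8a minus Cd4 (log2) in each mouse by group, with mean ± SD of 6 mice. Middle, the same difference against Cd3e (normalized log2 expression), where the sample with the lowest Cd3e (A1, 7.56) is at 0.03, the one with the highest (C2, 10.7) at -1.71, and the extremes of 0.96 (C1) and -2.02 (B1) are at a Cd3e of 9.03 and 10.1. Right, Cd4 and Cd8a against Cd3e with least-squares lines of slope 1.23 and 0.70, and open points in the first 2 panels are the 4 samples absent from the heatmaps.

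Across the 24 samples both coreceptors followed Cd3e, and Cd4 did so more steeply than Cd8a. For Cd4, Pearson's r to Cd3e was 0.966 and Spearman's rho 0.966 (permutation p = 1e-05 for both, the smallest that 100000 resamples give, adjusted 2e-05 over 4 relations), and r was 0.957 without the 2 samples farthest from the median, C2 and E2. For Cd8a, r was 0.859 and rho 0.834 (permutation p = 1e-05 for both, adjusted 2e-05), and r was 0.819 without C2 and E2. Within the groups r lay between 0.964 and 0.976 for Cd4 and between 0.816 and 0.973 for Cd8a. The slope on Cd3e was 1.23 ± 0.07 (SE) for Cd4, 0.90 ± 0.07 for Cd8b1 and 0.70 ± 0.09 for Cd8a, against 1.27 ± 0.06 for Cd247, 1.27 ± 0.05 for Trbc2, 1.18 ± 0.05 for Cd3d and 1.01 ± 0.06 for Cd3g.

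Samples with more Cd3e accordingly had a balance shifted towards Cd4. Cd8a minus Cd4 against Cd3e gave r = -0.619 (permutation p = 0.00126) and rho = -0.687 (permutation p = 0.00027), which is the last of the 4 relations and was added after the values had been seen. Without C2 and E2 r was -0.567, and over the 20 samples it was -0.642 (permutation p = 0.00266). Within groups r was -0.527 in untreated (exact permutation p = 0.26), -0.654 in trastuzumab (p = 0.163), -0.811 in T-DM1 (p = 0.0403) and -0.82 in T-PNU samples (p = 0.0361), negative in all 4. By rank none had a p under 0.05. There rho was -0.371 (exact permutation p = 0.497), -0.543 (p = 0.297), -0.771 (p = 0.103) and -0.829 (p = 0.0583) in the same order. For Cd8a against Cd4, r was 0.745 (permutation p = 4e-05) and rho 0.727 (permutation p = 7e-05), the lowest r among the 45 pairs of members. The highest was 0.995 for Cd3d and Cd247, and the median 0.968, or 0.971 when group means were removed.

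Cd28 was also set against the CD3 chain Cd3e within each sample. Cd28 minus Cd3e had a lowest, median and highest value of 0.98, 1.18 and 1.47 after T-PNU and of 0.31, 0.51 and 0.93 after T-DM1, so that these groups did not overlap. Untreated samples lay between 0.58 and 1.70 and trastuzumab samples between 0.37 and 1.26, overlapping both. T-PNU exceeded T-DM1 by 0.60 ± 0.12 (SE), with each of 6 T-PNU samples above each of 6 T-DM1 samples, which are not paired, and with an exact permutation p of 0.00216, the smallest possible, and an adjusted p of 0.0649 over the 30 tests of such differences, which missed the threshold. Of the CD3 and zeta chains, Cd3e itself differed least between these groups (0.75, against 1.01 for Cd3d, 1.05 for Cd3g and 1.05 for Cd247). Set against Cd3g, Cd28 did not separate them. In T-DM1 C3 Cd28 was at 9.90 and Cd3g at 9.97, and in T-PNU D2 they were at 10.81 and 10.97. Differences of Cd28 to the other chains were not tested, and how often other pairs of genes separate these groups was not counted. In level, Ptprc also separated T-PNU from T-DM1 samples (below), and 29.8% of all genes passed between them in limma over the 24 samples. In the same comparison Cd8a minus Cd3e differed by 0.17 ± 0.25 (exact permutation p = 0.511), Cd4 minus Cd3e by 0.11 ± 0.19 (exact permutation p = 0.541) and Cd8b1 minus Cd8a by 0.04 ± 0.12 (exact permutation p = 0.762).

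Other genes of the pathway were read from a list of 52, all with values. Against untreated tumors 50 of 52 had a higher mean after T-PNU over the 24 samples, with a median difference of 0.80, and none passed in limma, with 12 at an unadjusted p under 0.05, a share no higher than the 24.8% of all genes. The highest and the lowest were Tcf7, a regulator of naive and memory T cells (1.27 ± 0.61, adjusted p = 0.2), and Bcl10, a signaling adaptor (-0.07 ± 0.07, adjusted p = 0.495). In the 20 samples 43 of 52 passed, all higher, beside 31.1% of all genes. Against T-DM1 21 of 52 passed with the 20 samples, all higher after T-PNU, beside 39.9% of all genes. Over the 24 samples 11 of 52 passed, all higher, a share below the 29.8% of all genes. The largest differences among them were those of Icos, a costimulatory receptor related to CD28 (1.06 ± 0.39, adjusted p = 0.0428), and Trdc, the delta chain constant gene of gamma delta T cells (0.99 ± 0.28, adjusted p = 0.0135), and the smallest those of Cbl, a ubiquitin ligase that dampens receptor signals (0.32 ± 0.09, adjusted p = 0.0105), and Nfatc2, a transcription factor that calcium signals activate (0.37 ± 0.09, adjusted p = 0.00738).

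Against trastuzumab 0 of 52 passed over the 24 samples, with 2 at an unadjusted p under 0.05 (19.5% of all genes), and the values ran from -0.10 ± 0.11 for Zbtb7b (adjusted p = 0.596), the factor of the CD4 lineage, to 1.19 ± 0.64 for the kinase Prkcq (adjusted p = 0.299). With the 20 samples 34 of 52 passed, all higher after T-PNU, beside 28.0% of all genes. In the comparison of T-DM1 with untreated tumors over the 24 samples 1 of 52 fell, a share below the 6.27% of all genes that passed. It was the adaptor Sla, which lowers receptor levels in thymocytes (-0.42 ± 0.12, limma, adjusted p = 0.0372), and the highest value was that of Runx3, the factor of the CD8 lineage, at 0.41 ± 0.13 (adjusted p = 0.0627). With the 20 samples 0 of 52 passed as lower and 1 as higher, beside 2.01% of all genes. T-DM1 against trastuzumab gave 0 of 52 over the 24 samples, between the adaptor Lcp2 (-0.49 ± 0.12, adjusted p = 0.0607) and Cd40lg, a ligand on helper T cells (0.21 ± 0.56, adjusted p = 0.906). With the 20 samples 2 of 52 passed as lower, beside 0.812% of all genes. Trastuzumab against untreated gave 0 of 52 with either set of samples. Over the 24 samples its values lay between Grap2, an adaptor (-0.13 ± 0.58, adjusted p = 0.985), and Thy1, a T cell surface protein (0.44 ± 0.33, adjusted p = 0.805). By limma at an unadjusted p under 0.05 these last comparisons had 7 and 4 of 52 over the 24 samples, beside 15.3% and 8.77% of all genes.

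The 10 genes outside the members that most resembled the mean of their standardized values over the 24 samples were Camk4, Cd96, Lck, Il16, Themis, Txk, Sla2, Skap1, Fam78a and Slamf1, with Pearson's r from 0.99 for Camk4 to 0.983 for Slamf1. Lck and Txk are kinases of the receptor pathway, Themis and Skap1 adaptors in it, and Cd96 and Slamf1 lymphocyte surface receptors. By Spearman's rho 6 of the 10 remained among the first 10, and over the 20 samples 7. For Cd8a minus Cd4, the highest r belonged to Dse (0.874), Siae, Asah1, Vwa5a and Pld1 (0.842), and the lowest to Add3 (-0.892), Dusp10, Pja1, Patj and Zfp212 (-0.860), among 8415 named genes of above-median level. These likenesses are descriptions over samples that share libraries.

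Markers of some other cell types varied with the members over the same samples, and others did so little or not at all. Macrophage and monocyte genes had r between -0.481 (Csf1r) and 0.0467 (C1qc) to the members, and neutrophil genes between -0.184 (S100a8) and 0.386 (Retnlg). For NK cell genes r lay between 0.400 (Klre1) and 0.512 (Klrb1c). Genes of plasmacytoid dendritic cells had r between 0.0191 (Bst2) and 0.588 (Ccr9). All 7 B cell markers had r between 0.838 (Cr2) and 0.879 (Cd79b) to the members, and their summed level ran from 9.52 to 13.8 in untreated, 9.88 to 14.1 in trastuzumab, 9.71 to 13.3 in T-DM1 and 9.92 to 14.1 in T-PNU samples. The 6 genes of naive and lymph node lymphocytes had r between 0.82 (Il7r) and 0.934 (Lef1), with summed levels from 13.3 to 15.8, 13.4 to 15.3, 13.7 to 14.9 and 13.8 to 16.1 in the same order of groups. Glycam1, made by vessels of lymph nodes, was at 9.43 in T-PNU H1, 8.90 in T-PNU C2, 8.38 in trastuzumab E2 and 8.25 in trastuzumab B3, and at 4.19 in its lowest sample. Cxcl13, the other gene with values on the list of lymph node stroma, had r = -0.124 to the members, against 0.783 for Glycam1, with 5.62 in untreated B1, 6.24 in T-PNU C2, 7.65 in untreated A1 and its highest value, 8.08, in trastuzumab H2. Of the 9 genes of tumor, epithelial and stromal cells with values, Krt8, Krt18, Col1a1, Col1a2 and Pdgfrb were lowest in T-PNU C2, whereas Pecam1, an endothelial gene, was at 12.1 there, its second highest value, and Pecam1 (r = 0.844) and Epcam (0.821) were higher where the members were. Summed over these 9 genes, levels ran from 15.0 to 16.2 in untreated and from 15.5 to 16.4 in trastuzumab samples. They ran from 16.3 to 16.8 in T-DM1 and, lower throughout, from 14.6 to 15.9 in T-PNU samples. Krt8, Col1a1, Col1a2 and Pdgfrb were each higher in every T-DM1 than in every T-PNU sample. Krt14 (4.82 to 6.60 in T-PNU, 4.59 to 4.80 in T-DM1 samples) and Pecam1 (11.46 to 12.15 and 10.88 to 11.35) were higher in every T-PNU sample. Epcam, Krt18 and Cdh5 overlapped between these groups. Ptprc lay between 14.01 and 14.61 in T-DM1 and between 14.75 and 15.52 in T-PNU samples. The part of all these cell types in the differences between groups was not tested.

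**Figure D4:**
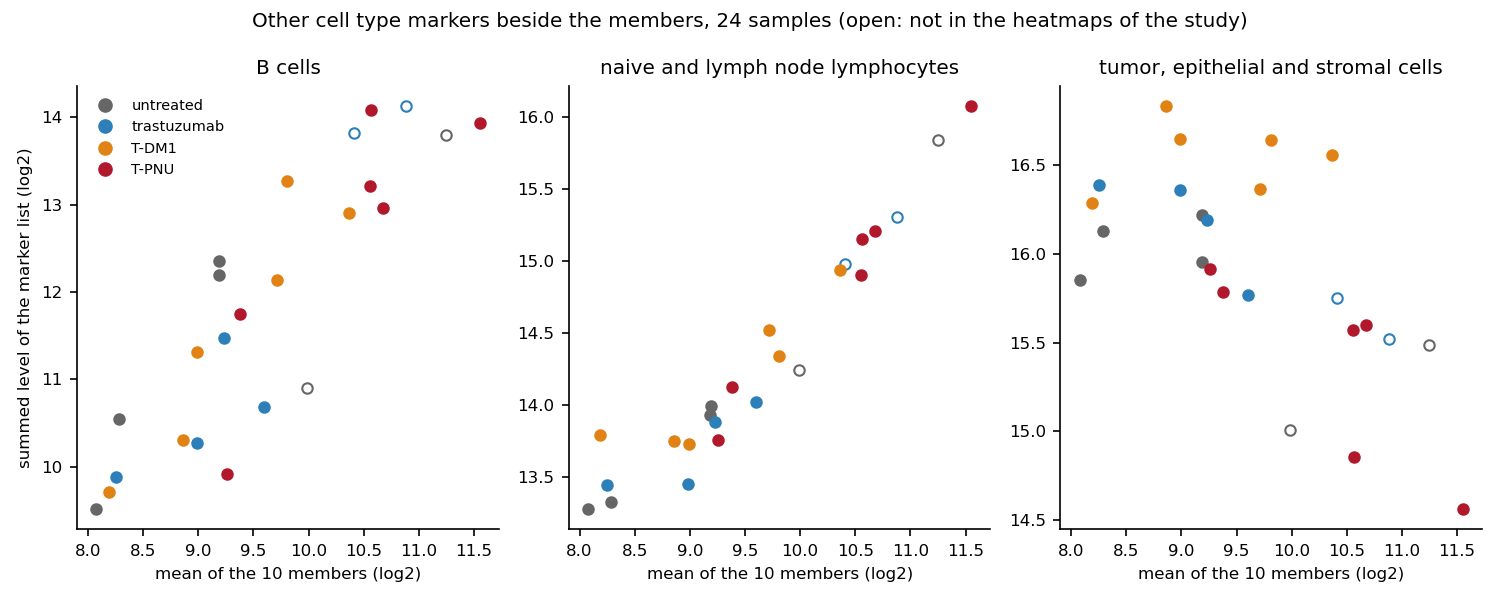
Summed level of 3 marker lists (vertical axes, log2) against the mean of the 10 members (horizontal axes, log2) in 24 samples, colored by group, with open points for the 4 samples absent from the heatmaps. B cell levels run from 9.52 to 14.1 and those of naive and lymph node lymphocytes from 13.3 to 16.1, both higher where the members are higher, while the level of tumor, epithelial and stromal genes is lowest, 14.6, in the sample with the highest members, a sum carried by Col1a2 (13.5 in that sample, the lowest of 24).

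Beside the balance, Ccr7 (r = -0.837 to Cd8a minus Cd4), S1pr1 (-0.82) and Lef1 (-0.798), all genes of naive lymphocytes, and the 7 B cell genes (-0.777 to -0.727) were higher where Cd4 was high relative to Cd8a. On the other side stood the macrophage genes Csf1r (0.706) and Adgre1 (0.605), and Cadm1 (0.772), a marker of type 1 dendritic cells, some of which express Cd8a. The other genes of that dendritic cell list had r of 0.617 (Tlr3), 0.318 (Xcr1), 0.252 (Batf3) and 0.237 (Clec9a). Summed over this list, levels ran from 11.9 (B1) to 13.2 (C1) in untreated, 12.5 to 12.8 in trastuzumab, 12.03 to 12.4 in T-DM1 and 12.2 to 13.0 in T-PNU samples, the lowest and the highest in the samples with the lowest and the highest balance. That sum is mostly Cadm1, at 11.5 in B1 and 12.8 in C1. Tlr3 and Batf3 were also lowest in B1, whereas Xcr1 was lowest in T-DM1 F3 (5.81, against 6.72 in B1) and Clec9a in T-DM1 H3 (6.15, against 6.79 in B1). Their part in the balance was not tested.

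The beta chain also carries a variable segment, and 18 Trbv segments had values, which were examined after the other values had been seen. On a linear scale, and as a share of the sum over the segments of a sample, Trbv13-2 (median 16.6%), Trbv13-1 (15.2%) and Trbv19 (14.4%) were the most abundant. Trbv16 took 35.8% in untreated C1, against 1.43% to 5.25% in the other 23 samples, with a log2 level of 8.31 there and at most 5.76 (E2) elsewhere. Trbv2 took 11.6% in trastuzumab F2 and at most 5.10% elsewhere. In C1, Cd8a was also the highest of all samples (10.8), and Cd8a minus Cd4 was 0.96, whereas in F2 Cd8a minus Cd4 was 0.66, the highest of its group. Segments share sequence, and the values are the sum over all T cells of a sample, so that the number of clones behind a share is not given by it.

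**Figure D5:**
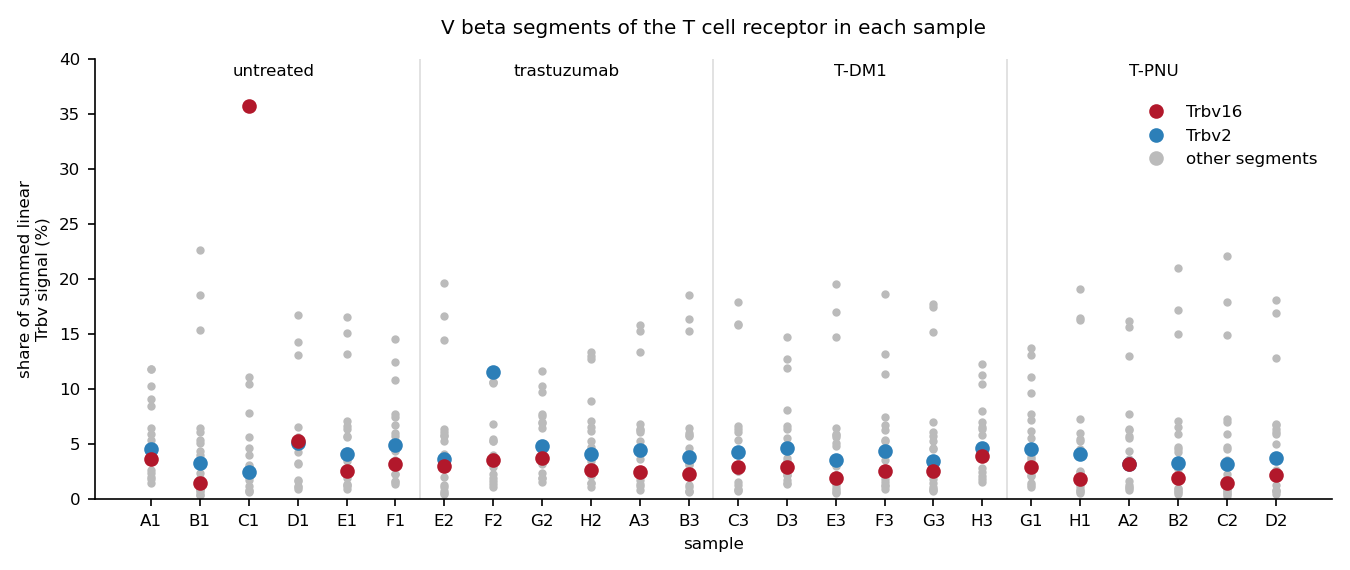
Share of each of 18 V beta segments in the summed linear signal of these segments (vertical axis, %) in the 24 samples (horizontal axis, by group). Red points are Trbv16, which reaches 35.8% in untreated C1, blue points are Trbv2, which reaches 11.6% in trastuzumab F2, and gray points are the other segments.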

How the data were processed

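CD45+ cells of 24 tumors were sequenced (TruSeq stranded mRNA). The authors aligned reads with STAR 2.4.2a, counted them per gene on the reverse strand with featureCounts (Subread 1.5.0) and removed genes with an average under 5 counts. The build, mm10, comes from the submitters' processing notes and stems from another mouse strain than Balb/c. The deposited values are log2 values normalized for library size by the authors, with the transformation not given in the sources used here. Counts cannot be recovered, so no count model was run, and depth and counting error are unknown.

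Members and gene lists were chosen with earlier results of these data known. The model over all genes came from limma 3.58.1 (R 4.3.3; 4 groups, trend, no covariate), with Benjamini-Hochberg adjustment over 16996 genes and calls at an adjusted p under 0.05. Differences within a sample were compared by exact permutation tests. Named were the members, the 2 highest and 2 lowest pathway genes past the threshold in each comparison (without any, the highest and the lowest), the 10 genes most like the members, the 5 with the highest and 5 with the lowest r to Cd8a minus Cd4, and markers beside a result. Other genes named were chosen after their values were seen. Positions and exon lengths are from GENCODE M21. Mice of a group are separate animals. The column headings hold a number whose meaning is not given. It runs from 288 to 293 in untreated, 500 to 505 in T-PNU, 518 to 523 in trastuzumab and 524 to 529 in T-DM1 samples. Whatever it stands for cannot be told apart from group. Alternatives were the 20 samples of the heatmaps, quantile normalization, genes above the median level, 2-group fits, sample weights, stricter thresholds and each replicate left out. The limma fit and the exact permutation test between groups were tested on simulated data, and the other steps were not. Python 3.11.15 was used for permutation tests and figures.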

Additional observations from a re-analysis of the deposited data

Results flagged for a closer look

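In groups of 6, a sample was singled out when its gap to the nearest other sample, divided by the range of the group, was above 0.625, which chance gives in about 1 in 20 groups, and 136 groups of values were examined. Among the members, untreated B1 stood apart for Trbc1 (11.2) and Cd4 (12.2). Among shares of the V beta segments, untreated C1 stood apart for Trbv16 (35.8%) and, at the low end, for Trbv20 (2.39%) and Trbv31 (2.91%), trastuzumab F2 for Trbv2 (11.6%), and T-PNU G1 for Trbv14 (11.1%), Trbv15 (2.21%) and, at the low end, Trbv13-1 (9.63%). Shares of a sample sum to the whole, so that a high share of Trbv16 in C1 lowers the others there.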

How the results depend on the processing

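Members past the threshold, 0 of 10 in each of 6 comparisons over 24 samples, became for T-PNU minus untreated 10 with the 20 samples and 10 with sample weights (0 to 1 with a replicate left out), for T-PNU minus trastuzumab 7 and 1 (0 to 0 with a replicate left out), and for T-PNU minus T-DM1 4 and 7, and further 1 with quantile normalization and 4 in the 2-group fit (0 to 2 with a replicate left out), where 29.1%, 32.8% and 18.5% to 34.6% of all genes passed. In the other 3 comparisons the count was 0 under every alternative. The 1 call for T-PNU minus untreated was that of Cd8a without untreated C1 (limma, adjusted p = 0.0301). For T-PNU minus T-DM1, Cd8a passed without B1, C1, E2, G2, E3 or A2 (adjusted p = 0.0315 to 0.0494) and Cd28 without B1, G1 or A2 (0.0297 to 0.0445), each left out alone. For the level of each member, every difference between T-PNU and another group kept its direction under all these settings. Of the 10 members, 7 turned from negative to positive in T-DM1 minus untreated with the 20 samples and 7 with sample weights, and in T-DM1 minus trastuzumab 7 and 4 changed sign. The balance passed in no setting. With a replicate left out it ran from -0.58 to 0.0155 for T-PNU minus untreated (the latter without C1), from -0.11 to 0.49 for trastuzumab minus untreated (-0.11 without B1), and from -0.21 to 0.26 for T-PNU minus T-DM1. No paired analysis was possible because the labels pair no mice between groups. With the depth unknown, the precision of low values is not known, and the causes of these changes were not tested.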

Other observations

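Among genes of the gamma delta T cell receptor, which were no members, Trdc, Trgc1, Trgc4 and Tcrg-V6 were highest in T-PNU H1, and Trgc2 in untreated C1 (5.58). Its log2 value was 9.23 for Trdc, 6.61 for Trgc1 and 4.10 for Tcrg-V6, against 8.34, 5.54 and 3.13 in the next highest sample of each gene (B1 for Trdc and C1 for the others). Foxp3, the factor of regulatory T cells, was lowest in untreated A1 (7.02) and highest in T-PNU C2 (9.46), the same samples that were the lowest and the highest for most members.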
